A study of Mus musculus with 14 samples.

Results

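Retinoid storage and metabolism were followed through 8 genes, *Lrat*, *Adh1*, *Adh4*, *Aldh1a1*, *Aldh1a2*, *Cyp26a1*, *Rara* and *Rarb*, in liver RNA of obese mice after bile diversion or gastric bypass. The genes were picked by name as steps of vitamin A storage, conversion, breakdown and signalling, and each matched 1 of the 25212 rows of the deposited count table. All 14 livers came from male C57BL/6 mice made obese with a high-fat diet and kept on it, and each liver gave 1 library. The 5 diet-induced obese (DIO) controls had no surgery, in 4 GB-IL mice the gallbladder was joined to the ileum and the common bile duct was tied, and 5 mice had Roux-en-Y gastric bypass (RYGB). The labels place every liver, those of the unoperated DIO mice too, at 8 weeks after surgery and give no age. No sham-operated liver was among the 14, so effects of an operation as such and of the rerouted bile or food cannot be told apart. For library making the labels list an mRNA kit and a total RNA kit but do not assign these 2 kits to livers, and they describe RNA amplification with Ovation reagents.

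Most of the vitamin A in the body is stored in the liver as retinyl esters, chiefly in hepatic stellate cells, where lecithin retinol acyltransferase joins retinol to a fatty acid. Alcohol dehydrogenases and retinol dehydrogenases turn retinol into retinal, a step that can run in both directions, and retinal dehydrogenases of the ALDH1A family turn retinal into retinoic acid, a step that cannot be undone. Retinoic acid binds the nuclear receptors RAR, which sit on DNA as pairs with RXR, and CYP26 enzymes clear it, and *Rarb* and *Cyp26a1* are themselves known targets of retinoic acid.

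Levels are given as CPM, the share of a library's reads that fall in a gene scaled by the trimmed mean of M values (TMM), and a gene was called different where the adjusted p was below 0.05 over all 14252 genes with enough counts to test. The spread of the GB-IL libraries bears on every comparison with GB-IL. In a principal component analysis the first axis took up 48.5% of the variance, and along it GB-IL livers 1 to 4 lay at -134, -106, -20.1 and 35.3. The 5 DIO livers lay between 21.9 and 45.7, and RYGB livers 1 to 5 at 2.14, 24.3, 33.8, 32.2 and -17.4. GB-IL liver 4 therefore stood among the DIO livers and far from GB-IL livers 1 and 2.

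Among markers of tissues other than liver, those of exocrine pancreas, skeletal muscle and squamous epithelium were highest in GB-IL liver 1. Those of adipocytes and intestine were highest in GB-IL liver 4. In GB-IL liver 4 all 4 adipocyte markers had counts (*Adipoq* 49, *Lep* 35, *Cfd* 311 and *Plin1* 23), and their summed level was 16.0 CPM of the total count, against 0 to 7.17 in the other 13 livers. *Cfd* was the most abundant of them. GB-IL liver 1 held all 5 exocrine pancreas markers, with *Ctrb1* highest at 16475 counts, summing to 1097 CPM of the total count against 6.83 to 36.7 elsewhere. It also held all 5 skeletal muscle markers, with *Acta1* highest at 11540 counts, summing to 1047 CPM against 0.573 to 2.81 elsewhere. All 5 squamous epithelium markers, with *Sbsn* the most abundant, were found too, and their sum was 44.3 CPM in GB-IL liver 1 against 1.44 to 6.03 elsewhere. Of the intestine list all 5 markers were found, with *Fabp2* the most abundant, and the sum was 159, 70.6, 187, 103 and 106 CPM in DIO livers 1 to 5, 9.26, 5.46, 27.1 and 209 CPM in GB-IL livers 1 to 4 and 101, 57.5, 82.2, 79.4 and 59.1 CPM in RYGB livers 1 to 5. Nearly all of it was *Fabp2*, and *Muc2*, named after its values were seen, had 102 reads in RYGB liver 5 against 0 to 11 elsewhere. No marker of these lists was at 0 in every liver. The part of these cells in the results was not tested.

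The 8 genes differed widely in level. Per kilobase of exon, the mean level in DIO livers was 1090.5 (932 to 1447) CPM for *Adh1*, 339 (236 to 429) for *Aldh1a1* and 75.5 (42.2 to 112) for *Adh4*, the range over the 5 livers in brackets. These 3 oxidising enzymes are hepatocyte genes, and their ranges did not overlap. On the same per-kilobase scale *Rara* had 5.60 (4.48 to 6.53) CPM and *Lrat* 2.56 (1.19 to 3.94) CPM. *Cyp26a1* had 1.66 (0.457 to 3.92) CPM per kilobase and *Rarb* 0.536 (0.265 to 0.686). *Aldh1a2* was lowest, at 0.0622 (0.0225 to 0.130) CPM per kilobase. In this order the neighbours *Lrat* and *Cyp26a1* overlapped among the DIO livers, as did *Cyp26a1* and *Rarb*, and the other neighbours did not.

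The genes also differed in how evenly the control livers held them. Relative to its mean, the standard deviation over the 5 DIO livers was 14.5% for *Rara*, 18.9% for *Adh1*, 23.2% for *Aldh1a1* and 30.2% for *Rarb*. It was 43.8% for *Adh4*, 43.9% for *Lrat*, 70.4% for *Aldh1a2* and 83.2% for *Cyp26a1*. Among DIO livers *Cyp26a1* was thus the most variable of the 8 and *Rara* the least.

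*Aldh1a2* had too few counts to test, which left 7 of the 8 genes in the fit. None of the 7 was called in any comparison by edgeR quasi-likelihood with Benjamini-Hochberg adjustment, where 3.26% of all genes tested (465, of which 449 were higher) were called for GB-IL against DIO. That share was 0% with RYGB in place of GB-IL and 0% between the 2 surgical groups. Both comparisons with DIO use the same 5 control livers. At an unadjusted p below 0.05 the counts were 1 of 7 (*Adh1*) for GB-IL against DIO (all genes 23.1%), 0 of 7 when RYGB was compared with DIO (8.71%) and 0 of 7 when GB-IL was compared with RYGB (22.1%). DESeq2 called 0 of 7 in each comparison, against 9.07%, 0.681% and 5.93% of all genes. With voom and sample quality weights 0 of 7 were called for GB-IL against DIO (4.13%), 1 of 7 (*Lrat*) with RYGB in place of GB-IL (11.9%) and 0 of 7 between GB-IL and RYGB (0.807%). The share of members called was thus near or below that of all genes.

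Direction and separation were counted as well. The median log2 ratio of the 7 genes was -0.34 for GB-IL against DIO (all genes 0.04), it was 0.12 with RYGB in place of GB-IL (0.01), and it was -0.32 between GB-IL and RYGB (0.03). Only *Adh1* had no overlap between 2 groups, GB-IL and DIO, which was so for 4.17% of all genes in that comparison, 3.53% in RYGB against DIO and 2.84% in GB-IL against RYGB. Leaving out GB-IL liver 4 changed the count for GB-IL against DIO to 1 of 7, *Aldh1a1*, which was lower, while 24.6% of all genes were then called and 9.27% were called lower. That liver stood among the DIO livers on the first axis, so leaving it out favours larger differences from DIO. Calls made only without liver 4, here and below, therefore describe the remaining GB-IL livers and are no separate test of the operation. For GB-IL against RYGB without liver 4 the count stayed at 0 of 7, beside 21.5% of all genes called.

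**Figure D1:**
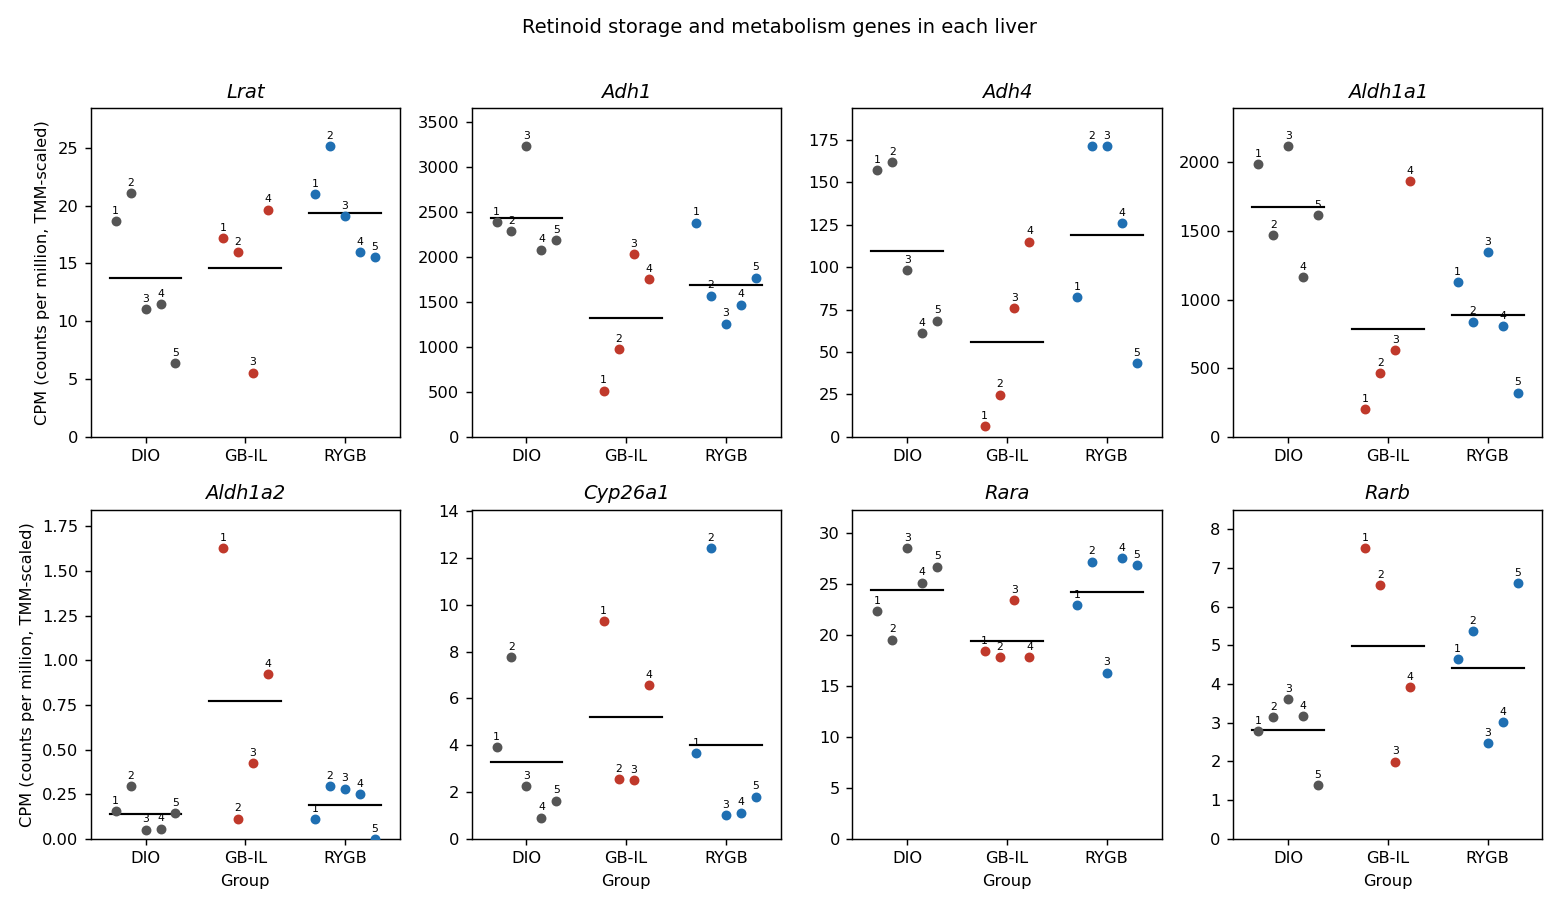
Level of each of the 8 genes in every liver, in CPM scaled by TMM. Points are livers, numbered within their group, and bars are group means. Each panel has its own axis starting at 0.

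*Lrat* encodes the acyltransferase that makes retinyl esters and is a marker of resting stellate cells. It measured 18.6, 21.1, 11.0, 11.5 and 6.35 CPM in DIO livers 1 to 5. In GB-IL, livers 1 to 4 had 17.2, 16.0, 5.56 and 19.7 CPM of *Lrat*, and RYGB livers 1 to 5 had 20.997, 25.2, 19.1, 16.0 and 15.5 CPM. The GB-IL values lay within the DIO range except for liver 3, the lowest of all 14, and the RYGB values lay in the upper part of that range with only liver 2 above it. Against DIO, *Lrat* in GB-IL had a log2 ratio of 0.09 (adjusted p = 0.895, standard error 0.358, edgeR quasi-likelihood, Benjamini-Hochberg). The sign was not fixed, as this ratio ran from -0.10 to 0.36 with single livers left out and was -0.36 without GB-IL livers 1 and 4. Against DIO, *Lrat* in RYGB had a log2 ratio of 0.49 (adjusted p = 0.707, standard error 0.338, edgeR quasi-likelihood, Benjamini-Hochberg). With voom and sample quality weights, which lowers the weight of outlying livers, the RYGB difference from DIO was 0.99 and was called (adjusted p = 0.0370, limma). Against RYGB, *Lrat* in GB-IL had a log2 ratio of -0.41 (adjusted p = 0.492, standard error 0.359, edgeR quasi-likelihood, Benjamini-Hochberg).

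The 14 markers of quiescent stellate cells, all found in the table, with *Dcn* the most abundant and none at 0 in every liver, were summed in each liver. The sum was 555, 454, 422, 496 and 431 CPM of the total count in DIO livers 1 to 5. In GB-IL livers 1 to 4 it was 1077, 532, 297 and 487 CPM, and in RYGB livers 1 to 5 528, 591, 509, 574 and 1012 CPM. GB-IL liver 3, lowest for *Lrat*, was also lowest for this sum, with 11 of the 14 markers below every DIO liver. In the 2 livers with the highest sums the markers did not move together. In GB-IL liver 1, 6 of the 14 were above every DIO liver. There *Dcn* (482 CPM against 112 to 194 in DIO) and *Des* (227 against 3.54 to 5.04), which is also a muscle gene, were high, while *Colec11*, *Ngfr*, *Pth1r* and *Gdf2* were below every DIO liver. In RYGB liver 5, 9 of the 14 were above every DIO liver, among them *Dcn* at 338 CPM and *Rgs5* at 221 CPM against 32.3 to 43.5 in DIO, while *Ngfr* and *Tcf21* were below every DIO liver. All of these but *Dcn* are named after their values were seen. Over RYGB livers 1 to 5 the markers above every DIO liver were 6, 9, 4, 8 and 9 of the 14, and those below were 0, 1, 1, 0 and 2. GB-IL livers 2 and 4 had 6 and 2 above every DIO liver and 5 and 2 below. The 7 markers of activated stellate cells, with *Col3a1* the most abundant and none at 0 in every liver, summed to 57.5, 29.6, 59.6, 43.1 and 31.9 CPM in the DIO livers. They summed to 122, 16.7, 128 and 117 CPM in the GB-IL livers and 50.8, 60.7, 53.6, 99.5 and 157 CPM in the RYGB livers, so that GB-IL livers 1, 3 and 4 and RYGB livers 2, 4 and 5 exceeded every DIO liver. In whole liver, fewer cells of a type and less RNA per cell cannot be told apart, and the part of stellate cells in the *Lrat* values was not tested.

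*Adh1* encodes the class I alcohol dehydrogenase, which oxidises ethanol as well as retinol. DIO livers 1 to 5 had 2388, 2286, 3231, 2081 and 2189 CPM of *Adh1*. The level was 514, 974, 2030.4 and 1757 CPM in GB-IL livers 1 to 4 and 2381, 1569, 1257, 1469 and 1770.4 CPM in RYGB livers 1 to 5. All 4 GB-IL livers lay below the lowest DIO liver, livers 1 and 2 far below and liver 3 just below it, and 4 of 5 RYGB livers lay below it as well, with RYGB liver 1 inside the DIO range. Group means ± standard deviations were 2435 ± 459 CPM in DIO, 1319 ± 699 CPM in GB-IL and 1689 ± 429 CPM in RYGB. Against DIO, *Adh1* in GB-IL had a log2 ratio of -0.88 (adjusted p = 0.153, standard error 0.346, edgeR quasi-likelihood, Benjamini-Hochberg). It was -1.06 without GB-IL liver 4 (adjusted p = 0.0510, edgeR quasi-likelihood, Benjamini-Hochberg) and -0.63 without GB-IL liver 1 (adjusted p = 0.325). Against DIO, *Adh1* in RYGB had a log2 ratio of -0.53 (adjusted p = 0.670, standard error 0.321, edgeR quasi-likelihood, Benjamini-Hochberg). GB-IL and RYGB overlapped in *Adh1*, with a log2 ratio of -0.36 (adjusted p = 0.527, edgeR quasi-likelihood, Benjamini-Hochberg).

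*Adh4* encodes the class II alcohol dehydrogenase, a liver enzyme that also takes retinol, and the gene stands near *Adh1* on chromosome 3. It measured 157, 162, 98.5, 61.2 and 68.4 CPM in DIO livers 1 to 5 and 6.51, 24.9, 75.9 and 115 CPM in GB-IL livers 1 to 4. RYGB livers 1 to 5 had 82.5, 171, 171, 126 and 43.2 CPM of *Adh4*. GB-IL livers 1 and 2 and RYGB liver 5 lay below every DIO liver, GB-IL livers 3 and 4 lay among the DIO livers, and RYGB livers 2 and 3 lay above them. Within GB-IL the highest liver had 17.7 times the level of the lowest. Against DIO, *Adh4* in GB-IL had a log2 ratio of -0.98 (adjusted p = 0.342, standard error 0.627, edgeR quasi-likelihood, Benjamini-Hochberg). Leaving out GB-IL liver 4 gave -1.62 (adjusted p = 0.0825, edgeR quasi-likelihood, Benjamini-Hochberg) and leaving out liver 1 gave -0.62 (adjusted p = 0.585). Against DIO, *Adh4* in RYGB had a log2 ratio of 0.12 (adjusted p = 0.968, standard error 0.578, edgeR quasi-likelihood, Benjamini-Hochberg). Its sign turned in some fits, with -0.0489 to 0.34 over single livers left out and -0.13 with liver number as a replicate block. Against RYGB, *Adh4* in GB-IL had a log2 ratio of -1.10 (adjusted p = 0.307, standard error 0.629, edgeR quasi-likelihood, Benjamini-Hochberg). That ratio was -1.74 without GB-IL liver 4 (adjusted p = 0.0710, edgeR quasi-likelihood, Benjamini-Hochberg) and -0.74 without liver 1 (adjusted p = 0.465), neither called.

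*Aldh1a1* encodes a cytosolic dehydrogenase that oxidises retinal to retinoic acid and also takes other aldehydes. In DIO livers 1 to 5 it measured 1987, 1472, 2119, 1164 and 1616 CPM. GB-IL livers 1 to 4 had 199.6, 462, 631 and 1864 CPM of *Aldh1a1*, and RYGB livers 1 to 5 had 1126, 839.7, 1344, 809 and 321 CPM. GB-IL livers 1 to 3 lay below all DIO livers while liver 4 was near the top of the DIO range, and 4 of 5 RYGB livers lay below the DIO range, RYGB liver 5 furthest. Against DIO, *Aldh1a1* in GB-IL had a log2 ratio of -1.08 (adjusted p = 0.231, standard error 0.526, edgeR quasi-likelihood, Benjamini-Hochberg). Without GB-IL liver 4 the log2 ratio was -1.96 (adjusted p = 0.00872, standard error 0.453, edgeR quasi-likelihood, Benjamini-Hochberg) and *Aldh1a1* was called lower. Without GB-IL liver 1 it was -0.77 and not called (adjusted p = 0.473, edgeR quasi-likelihood, Benjamini-Hochberg). With both livers 1 and 4 left out it was -1.63 and called (adjusted p = 0.0341, edgeR quasi-likelihood, Benjamini-Hochberg), as were 12.1% of all genes. Against DIO, *Aldh1a1* in RYGB had a log2 ratio of -0.91 (adjusted p = 0.618, standard error 0.488, edgeR quasi-likelihood, Benjamini-Hochberg). Against RYGB, *Aldh1a1* in GB-IL had a log2 ratio of -0.17 (adjusted p = 0.854, standard error 0.515, edgeR quasi-likelihood, Benjamini-Hochberg). This ratio was -1.05 without GB-IL liver 4 (adjusted p = 0.0903, edgeR quasi-likelihood, Benjamini-Hochberg) and 0.14 without liver 1 (adjusted p = 0.879), neither called.

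*Aldh1a7* is a close paralog of *Aldh1a1* in rodents, and whether reads of the 2 genes were kept apart is not known from the count table. Its log2 ratio for GB-IL against DIO was -0.32 (adjusted p = 0.649, edgeR quasi-likelihood, Benjamini-Hochberg), -0.73 without GB-IL liver 4 (adjusted p = 0.219) and 0.00 without GB-IL liver 1 (adjusted p = 0.999).

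*Adh1*, *Adh4* and *Aldh1a1* were all low in GB-IL livers 1 and 2, and *Adh4* and *Aldh1a1* also in RYGB liver 5. The same 3 livers had the lowest sums of the 9 pericentral hepatocyte markers, all of them found, with *Cyp2e1* the most abundant and none at 0 in every liver. Pericentral markers summed to 9822, 13337, 12963, 12577 and 13346 CPM of the total count in DIO livers 1 to 5. They summed to 4237, 2307, 10581 and 12011 CPM in GB-IL livers 1 to 4 and to 15197, 9592, 13263, 13786 and 2967 CPM in RYGB livers 1 to 5. GB-IL livers 1 and 2 and RYGB liver 5 thus stood well below all others, with 8, 7 and 7 of the 9 markers below every DIO liver. The list was split in RYGB liver 5, where 2 of the 9 were above every DIO liver. By their sums GB-IL livers 3 and 4 were at the level of controls, but 3 and 1 of the 9 markers were below every DIO liver there and 0 above. The 8 periportal markers, all found, with *Pck1* the most abundant and none at 0 in every liver, summed to 5575, 5428, 5679, 7646 and 7792 CPM in the DIO livers. Their sum was 10719, 7610.5, 6868 and 6373 CPM in the GB-IL livers and 5565, 5048, 7809, 7147 and 5414 CPM in the RYGB livers, with GB-IL liver 1 the highest. The list was not uniform there: *Pck1*, *Ass1* and *Sds* were above every DIO liver, while *Cyp2f2* was 68.4 CPM against 574 to 1028 in DIO, *Hsd17b6* 4.66 against 55.6 to 146, and *Hal* was below every DIO liver. Apart from *Pck1* these genes are named after their values were seen. Of 7 general hepatocyte markers 6 were found, with *Alb* the most abundant and none at 0 in every liver, and the sum ranged from 85124 CPM in GB-IL liver 3 to 154089 CPM in RYGB liver 5. This list was split too. GB-IL livers 1 to 4 had 2, 2, 2 and 0 of the 6 above every DIO liver and 3, 3, 3 and 2 below. RYGB livers 1 to 5 had 0, 1, 3, 3 and 3 above and 2, 2, 2, 2 and 1 below. The part of pericentral hepatocytes in these results was not tested.

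*Aldh1a2* encodes the retinal dehydrogenase that makes most retinoic acid in the embryo, and in adult organs it is known from mesothelium and other mesenchymal cells. It had 3, 6, 1, 1 and 3 reads in DIO livers 1 to 5, 31, 2, 10 and 25 in GB-IL livers 1 to 4 and 2, 6, 8, 6 and 0 in RYGB livers 1 to 5. GB-IL livers 1, 3 and 4 exceeded every other liver, whereas GB-IL liver 2 was within the DIO range. The reads summed to 14 in DIO, 68 in GB-IL and 22 in RYGB. Relative to TMM-scaled library size, GB-IL had 5.42 (95% Clopper-Pearson interval 3.02 to 10.4) times the DIO rate, and an exact permutation test over the livers gave p = 0.0317, where the smallest p that 126 permutations can give is 0.00794. The interval counts reads as independent and leaves out the spread among livers. GB-IL livers 1 and 4 gave 31 and 25 of the 68 reads. Liver 1 was the highest for exocrine pancreas, skeletal muscle and squamous epithelium markers, and liver 4 for adipocyte and intestine markers. Without both of them the rate was 2.03 times that of DIO (interval 0.856 to 4.72, exact permutation p = 0.333), without liver 1 it was 3.77 times that of DIO (interval 1.99 to 7.55, exact permutation p = 0.0714), and without liver 4 it was 4.97 times that of DIO (interval 2.67 to 9.83, exact permutation p = 0.0714). The smallest p these exact permutation tests could give was 0.0476 with both left out and 0.0179 with 1 left out. RYGB had 1.28 (95% Clopper-Pearson interval 0.625 to 2.70) times the DIO rate (exact permutation p = 0.508). Against RYGB the GB-IL rate was 4.24 (95% Clopper-Pearson interval 2.59 to 7.21) times as high (exact permutation p = 0.0556), and without livers 1 and 4 it was 1.59 times as high (interval 0.715 to 3.35, exact permutation p = 0.571). Adjusted by Benjamini-Hochberg over these 3 exact permutation tests, the p for GB-IL against DIO was 0.0833. A fit with no filter on low counts gave an adjusted p of 0.117 (edgeR quasi-likelihood, Benjamini-Hochberg) for that comparison.

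Mesothelial markers were highest in GB-IL livers 1 and 3, 2 of the 3 livers high for *Aldh1a2*. All 6 were found, with *Msln* the most abundant and none at 0 in every liver, and they summed to 3.64, 11.9, 2.67, 6.51 and 3.17 CPM of the total count in the DIO livers. Their sum was 28.5, 4.73, 19.7 and 11.3 CPM in GB-IL livers 1 to 4 and 3.57, 10.7, 2.09, 9.44 and 6.17 CPM in RYGB livers 1 to 5. GB-IL liver 4 was close to DIO liver 2, and GB-IL liver 2 was within the DIO range. *Msln* itself, which encodes mesothelin, had 246, 30, 213 and 77 reads in GB-IL livers 1 to 4 against 17, 59, 18, 32 and 16 in the DIO livers. The part of mesothelium in the *Aldh1a2* counts was not tested.

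*Cyp26a1* encodes the hydroxylase that inactivates retinoic acid in liver, and its transcription follows retinoic acid closely. DIO livers 1 to 5 had 3.93, 7.77, 2.24, 0.905 and 1.63 CPM of *Cyp26a1*. The level was 9.30, 2.54, 2.50 and 6.57 CPM in GB-IL livers 1 to 4 and 3.66, 12.4, 1.02, 1.12 and 1.80 CPM in RYGB livers 1 to 5. Every group spanned low and high livers, with RYGB liver 2 the highest of all, GB-IL liver 1 the only GB-IL liver above the DIO range, and 3 RYGB livers below 2 CPM. Against DIO, *Cyp26a1* in GB-IL had a log2 ratio of 0.66 (adjusted p = 0.585, standard error 0.751, edgeR quasi-likelihood, Benjamini-Hochberg). Against DIO, *Cyp26a1* in RYGB had a log2 ratio of 0.27 (adjusted p = 0.936, standard error 0.715, edgeR quasi-likelihood, Benjamini-Hochberg). Against RYGB, *Cyp26a1* in GB-IL had a log2 ratio of 0.39 (adjusted p = 0.761, standard error 0.748, edgeR quasi-likelihood, Benjamini-Hochberg). Each log2 ratio took the other sign when single livers or both GB-IL livers 1 and 4 were left out: GB-IL against DIO was -0.40 without the latter, and RYGB against DIO ran from -0.81 to 0.87 over the livers left out.

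*Rara* encodes the retinoic acid receptor found in most tissues. It measured 22.3, 19.5, 28.5, 25.1 and 26.7 CPM in DIO livers 1 to 5. The 4 GB-IL livers had 18.4, 17.8, 23.4 and 17.8 CPM of *Rara*, and RYGB livers 1 to 5 had 22.9, 27.2, 16.3, 27.5 and 26.9 CPM. GB-IL livers 1, 2 and 4 were just below the lowest DIO liver and liver 3 was in the DIO range, as were all RYGB livers but liver 3, which was the lowest of the 14. Against DIO, *Rara* in GB-IL had a log2 ratio of -0.34 (adjusted p = 0.267, standard error 0.179, edgeR quasi-likelihood, Benjamini-Hochberg). Against DIO, *Rara* in RYGB had a log2 ratio of -0.02 (adjusted p = 0.984, standard error 0.168, edgeR quasi-likelihood, Benjamini-Hochberg). Against RYGB, *Rara* in GB-IL had a log2 ratio of -0.32 (adjusted p = 0.298, standard error 0.179, edgeR quasi-likelihood, Benjamini-Hochberg).

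*Rarb* encodes the receptor whose own promoter is switched on by retinoic acid. In DIO livers 1 to 5 it measured 2.77, 3.15, 3.61, 3.17 and 1.39 CPM. The values were 7.51, 6.55, 1.99 and 3.91 CPM in GB-IL livers 1 to 4 and 4.65, 5.38, 2.46, 3.02 and 6.61 CPM in RYGB livers 1 to 5. GB-IL livers 1, 2 and 4 and RYGB livers 1, 2 and 5 exceeded every DIO liver, and the rest of both groups lay within the DIO range. Against DIO, *Rarb* in GB-IL had a log2 ratio of 0.82 (adjusted p = 0.226, standard error 0.393, edgeR quasi-likelihood, Benjamini-Hochberg). With liver 4 left out it was 0.91 (adjusted p = 0.125, edgeR quasi-likelihood, Benjamini-Hochberg), and with liver 1 left out 0.55 (adjusted p = 0.539). Against DIO, *Rarb* in RYGB had a log2 ratio of 0.65 (adjusted p = 0.647, standard error 0.374, edgeR quasi-likelihood, Benjamini-Hochberg). Against RYGB, *Rarb* in GB-IL had a log2 ratio of 0.17 (adjusted p = 0.805, standard error 0.390, edgeR quasi-likelihood, Benjamini-Hochberg), and it ran from -0.10 to 0.44 with single livers left out.

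By GENCODE M21 on mm10 the storage gene *Lrat* (ENSMUSG00000028003) at chr3:82892579-82903973 on the minus strand, and the 2 alcohol dehydrogenases *Adh1* (ENSMUSG00000074207) at chr3:138260991-138290698 on the plus strand and *Adh4* (ENSMUSG00000037797) at chr3:138415466-138430892 on the plus strand, all lie on chromosome 3. The retinal dehydrogenase *Aldh1a1* (ENSMUSG00000053279) at chr19:20492715-20643465 on the plus strand shares chromosome 19 with *Cyp26a1* (ENSMUSG00000024987) at chr19:37697798-37701536 on the plus strand. The others are *Aldh1a2* (ENSMUSG00000013584) at chr9:71215789-71296243 on the plus strand, *Rara* (ENSMUSG00000037992) at chr11:98927818-98974942 on the plus strand and *Rarb* (ENSMUSG00000017491) at chr14:16430839-16819156 on the minus strand. RAR and RXR are known to bind 2 direct repeats 5 bases apart, so RefSeq promoter windows on GRCm38.p6, from 250 bases before to 50 after the start, were searched on both strands. The pair searched was any 2 from the set of AGGTCA or GGTTCA or AGTTCA, repeats allowed, in the same orientation with a spacer of 5 bases. It was in 20 of 32851 windows (0.0609%). Among the 8 genes, which had 12 windows, it was in windows of 2, *Rarb* and *Cyp26a1*, both known retinoic acid targets. The windows of these 2 genes are shown because they are the only ones of the 8 genes with the pair, which is in capitals.
Rarb, chr14:16575427-16575726, minus strand: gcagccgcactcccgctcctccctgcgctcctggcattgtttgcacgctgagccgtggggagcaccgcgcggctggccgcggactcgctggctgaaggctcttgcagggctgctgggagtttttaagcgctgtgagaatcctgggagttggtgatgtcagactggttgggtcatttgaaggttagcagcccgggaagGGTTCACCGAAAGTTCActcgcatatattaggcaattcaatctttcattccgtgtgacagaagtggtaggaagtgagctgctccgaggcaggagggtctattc
Cyp26a1, chr19:37697558-37697857, plus strand: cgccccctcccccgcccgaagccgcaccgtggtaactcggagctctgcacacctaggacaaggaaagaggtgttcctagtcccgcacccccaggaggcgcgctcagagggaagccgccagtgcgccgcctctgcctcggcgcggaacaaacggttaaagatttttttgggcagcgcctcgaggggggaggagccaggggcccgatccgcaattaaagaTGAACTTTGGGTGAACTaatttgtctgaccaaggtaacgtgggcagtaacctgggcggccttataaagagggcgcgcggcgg
In *Rarb* the pair runs from 53 to 37 bases before a RefSeq transcript start on the strand of the gene. That start lies inside the span given above, not at its outer end. In *Cyp26a1* the pair runs from 32 to 16 bases before the start on the other strand. A match describes the letters of the window and was not tested as a binding site. *Rarb* and *Cyp26a1* were known targets before the search, so their matches beside the share of all windows are no test of enrichment.

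Each tested gene was also compared with 12695 genes of at least 1 CPM by its rank order over the 14 livers, the measure being the mean difference in rank, which is 0 for the same order and was 4.57 or 4.71 for the median gene. Closest to *Lrat* were *Stard4*, *Insig1* and *Hmgcs1* (1.86 each), *Hmgcs1* being an enzyme of sterol synthesis. The order of *Adh1* was most like that of *Top1mt*, *1810046K07Rik* and *Ces1c* (1.29 each). For *Adh4* the nearest genes were *Abcb10* (0.857), *Abcb11* (1.00) and *Nxpe2* (1.00), *Abcb11* being the bile salt export pump. *Aldh1a1* came closest to *Esd*, *Itm2b* and *Gsta3* (0.714 each), *Gsta3* being a glutathione transferase. *Cyp26a1* had no gene nearer than *Sgsm1* (2.00), *Lrif1* (2.14) and *Cks1b* (2.29). The nearest to *Rara* were *N4bp3*, *Itpka* and *Rab3a* (2.14 each), and to *Rarb* *Gprc5b* (1.43), *Nckap5l* (1.43) and *Gpr4* (1.57). Among the members, *Adh1* and *Aldh1a1* were the most alike (2.29), followed by *Cyp26a1* and *Lrat* (2.57), and *Lrat* and *Rara* were the least alike (6.29). These are descriptions over livers of 3 groups, with no test.

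The 8 genes were set beside a list of 62 retinoid genes ordered by role, of which 52 could be tested. For GB-IL against DIO 1 of 52 was called, higher (*Fabp5*), by edgeR quasi-likelihood with Benjamini-Hochberg adjustment, beside the 3.26% of all genes. By sign 18 were higher and 34 lower, the median log2 ratio was -0.14 against 0.04 for all genes, and 14 of 52 had an unadjusted p below 0.05 (all genes 23.1%). DESeq2 called 6 of 52 and voom with sample quality weights 6 of 52 in that comparison, against 9.07% and 4.13% of all genes. Those of DESeq2 were *Fabp5*, *Pnpla2* and *Rdh13*, higher, and *Dhrs4*, *Rxrg* and *Ttr*, lower, and those of voom were *Fabp5*, higher, and *Aox1*, *Ces1d*, *Dhrs4*, *Retsat* and *Ttr*, lower. For RYGB against DIO 0 of 52 were called, 8 had an unadjusted p below 0.05 (all genes 8.71%), 26 were higher and 26 lower by sign, and the median was -0.00393 against 0.01. There DESeq2 called 1 (*Fabp5*), beside 0.681% of all genes, and voom 12, a share above the 11.9% of all genes. The 12 were *Aldh1a3*, *Dhrs9*, *Fabp5*, *Lrat*, *Rarg*, *Rdh11* and *Stra6l*, higher, and *Dhrs4*, *Lipe*, *Retsat*, *Rxrg* and *Ttr*, lower. For GB-IL against RYGB 0 of 52 were called, 8 had an unadjusted p below 0.05 (all genes 22.1%), 14 were higher and 38 lower by sign, and the median was -0.30 against 0.03. DESeq2 called 1 there (*Pnpla2*) and voom 0, beside 5.93% and 0.807% of all genes. Without GB-IL liver 4 the count for GB-IL against DIO was larger, with 18 of 52 called, 5 higher and 13 lower, beside 24.6% of all genes, and the median was -0.22. Without that liver 12 of 52 were called between GB-IL and RYGB, 4 higher and 8 lower, beside 21.5%. Groups did not overlap in 5 of 52 genes for GB-IL against DIO (*Adh1*, *Adh7*, *Aldh8a1*, *Retsat* and *Rxrg*), beside 4.17% of all genes. This was so in 2 of 52 for RYGB against DIO (*Fabp5* and *Scarb1*; 3.53%) and in 1 of 52 for GB-IL against RYGB (*Rdh9*; 2.84%).

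**Figure D2:**
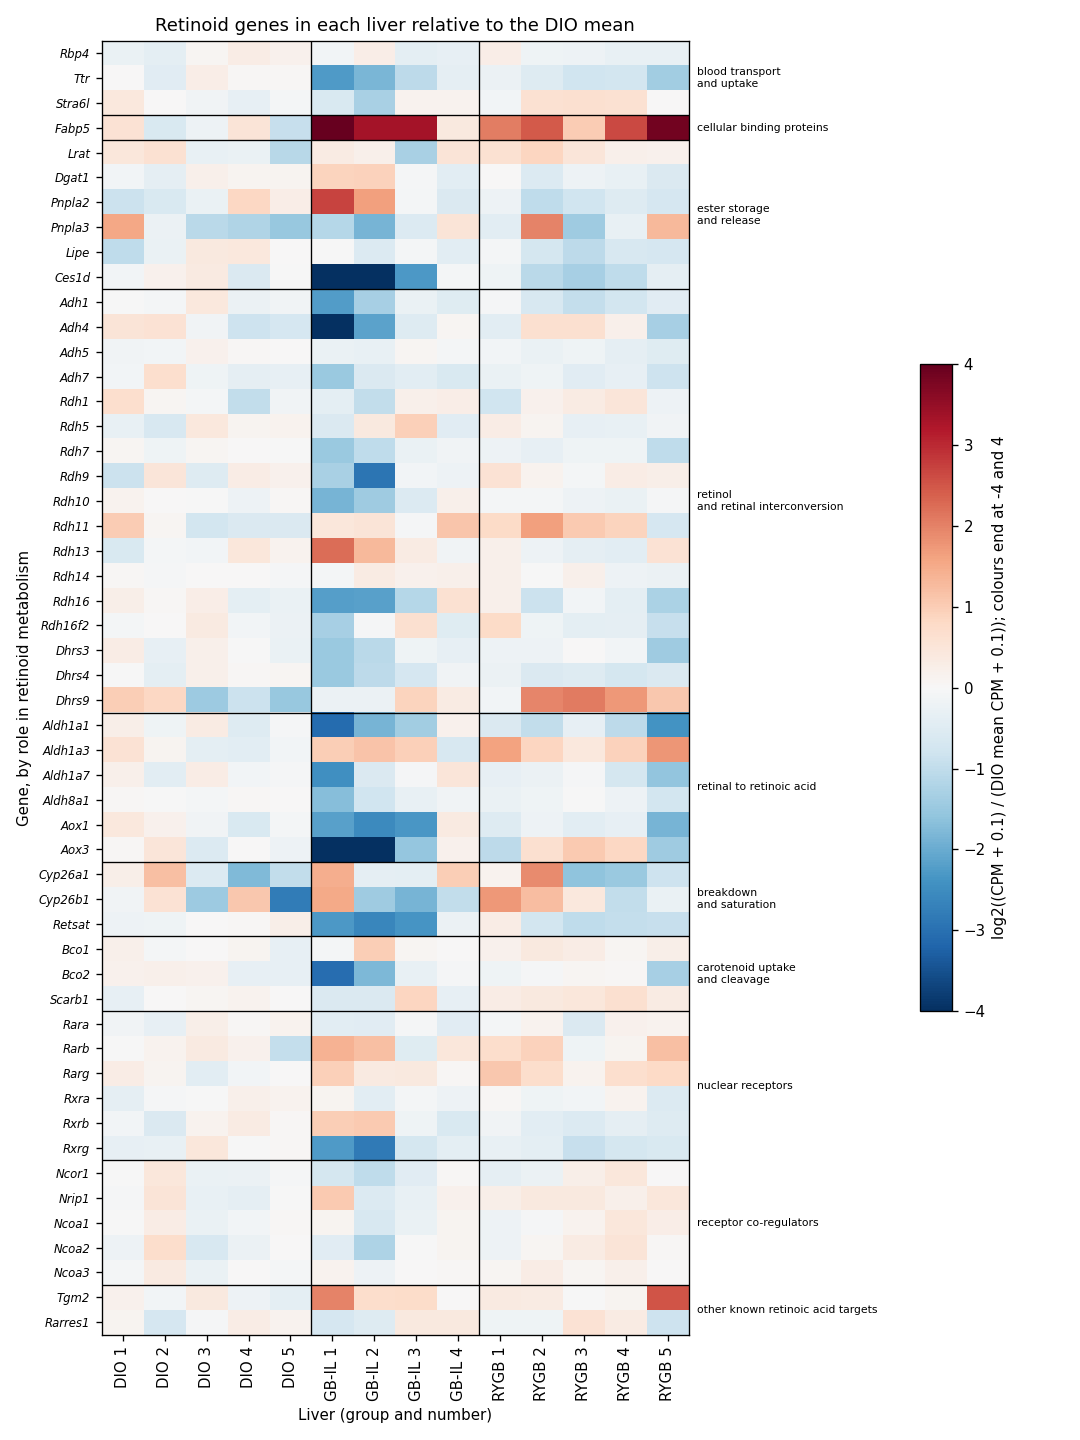
Level of the 52 tested retinoid genes in every liver, ordered by role, as the log2 ratio to the mean of the DIO livers (0.1 CPM added). Colours end at -4 and 4, and 6 values lie beyond them.

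In blood, retinol travels with its binding protein, encoded by *Rbp4*, which rides on transthyretin, encoded by *Ttr*. Of 4 transport and uptake genes 3 were tested, with 0 higher and 3 lower by sign, median log2 -0.30 for GB-IL against DIO. *Ttr* had 7841, 5696, 9294, 8101 and 7972 CPM in DIO livers 1 to 5. It had 1607, 2186, 3742 and 6014 CPM in GB-IL livers 1 to 4 and 6595, 5442, 4506, 4686 and 2941 CPM in RYGB livers 1 to 5. In *Ttr*, GB-IL livers 1 to 3 were below every DIO liver, GB-IL liver 4 was inside the DIO range near its low end, and 4 of 5 RYGB livers were below that range. Against DIO, *Ttr* in GB-IL had a log2 ratio of -1.20 (adjusted p = 0.0816, standard error 0.364, edgeR quasi-likelihood, Benjamini-Hochberg). Leaving out GB-IL liver 4 gave -1.64, and *Ttr* was called lower (adjusted p = 0.00469, edgeR quasi-likelihood, Benjamini-Hochberg). The call was not made without liver 1, at -0.98 (adjusted p = 0.205), and was made without both livers, at -1.41 (adjusted p = 0.0184, edgeR quasi-likelihood, Benjamini-Hochberg). The RYGB log2 ratio from DIO was -0.69 (adjusted p = 0.586, edgeR quasi-likelihood, Benjamini-Hochberg), and with voom and sample quality weights it was -0.71 and called lower (adjusted p = 0.0227, limma). *Rbp4* differed little, at -0.11 for GB-IL against DIO (adjusted p = 0.778, edgeR quasi-likelihood, Benjamini-Hochberg).

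Inside cells, retinoids travel on small binding proteins, and FABP5 is a fatty acid binding protein that can also carry retinoic acid. *Fabp5* measured 5.08, 2.17, 2.90, 4.87 and 1.73 CPM in DIO livers 1 to 5. It had 55.2, 34.5, 34.6 and 4.39 CPM in GB-IL livers 1 to 4 and 13.998, 18.6, 6.87, 21.5 and 49.6 CPM in RYGB livers 1 to 5. Every surgical liver but GB-IL liver 4 exceeded all DIO livers. Neutrophil markers summed to 85.6, 37.8, 234 and 2.30 CPM of the total count in GB-IL livers 1 to 4, against 2.38 to 4.82 in DIO livers. In RYGB livers 1 to 5 the sums were 7.35, 3.41, 4.64, 5.11 and 73.7 CPM. The part of neutrophils in the *Fabp5* values was not tested. *Fabp5* rose in GB-IL against DIO, with a log2 ratio of 3.26 (adjusted p = 0.0278, standard error 0.637, edgeR quasi-likelihood, Benjamini-Hochberg), or 3.62 without GB-IL liver 4 (adjusted p = 0.000684). Against DIO, *Fabp5* in RYGB had a log2 ratio of 2.73 (adjusted p = 0.331, standard error 0.610, edgeR quasi-likelihood, Benjamini-Hochberg), and it was called by DESeq2 (adjusted p = 0.00204), by voom with sample quality weights (0.0117) and by a fit of these 2 groups alone (0.0446). Against RYGB, *Fabp5* in GB-IL had a log2 ratio of 0.54 (adjusted p = 0.582, standard error 0.591, edgeR quasi-likelihood, Benjamini-Hochberg). The call of *Fabp5* in GB-IL against DIO was lost without GB-IL liver 1, GB-IL liver 2 or any 1 of the 5 DIO livers, in a fit of the 2 groups alone and with liver number as a replicate block, the adjusted p then being between 0.0581 and 0.0942 (edgeR quasi-likelihood, Benjamini-Hochberg), with log2 ratios of 2.86 to 3.46. It was made without both GB-IL livers 1 and 4 (adjusted p = 0.00299).

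Making, storage and release of esters were covered by 6 genes, *Lrat* among them, all tested, with 3 higher and 3 lower by sign, median log2 -0.08 for GB-IL against DIO. The most abundant per kilobase were *Ces1d*, a carboxylesterase able to split retinyl esters, at 243 CPM per kilobase in DIO livers, and *Pnpla2*, the adipose triglyceride lipase, at 36.5. *Ces1d* measured 536, 647, 743, 383 and 564 CPM in DIO livers 1 to 5. The 4 GB-IL livers had 19.4, 16.7, 116 and 541 CPM of *Ces1d*, and RYGB livers 1 to 5 had 510.1, 272, 228, 284 and 444 CPM. GB-IL livers 1 to 3 were far below every DIO liver and GB-IL liver 4 was at their level, while 3 of 5 RYGB livers were below them by less. Against DIO, *Ces1d* in GB-IL had a log2 ratio of -1.73 (adjusted p = 0.199, standard error 0.772, edgeR quasi-likelihood, Benjamini-Hochberg). With liver 4 left out it was -3.50, and *Ces1d* was called lower (adjusted p = 0.00227, edgeR quasi-likelihood, Benjamini-Hochberg). The *Ces1d* ratio without liver 1 was -1.36 (adjusted p = 0.393) and without both livers -3.14 (adjusted p = 0.00856, edgeR quasi-likelihood, Benjamini-Hochberg), a call again.

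*Pnpla2* had 60.7, 72.1, 91.5, 194 and 133 CPM in DIO livers 1 to 5. The level was 723, 346, 104 and 74.1 CPM in GB-IL livers 1 to 4 and 96.1, 54.5, 63.3, 76.4 and 69.2 CPM in RYGB livers 1 to 5. GB-IL livers 1 and 2 were above all other livers, and the rest were in or near the DIO range. Against DIO, *Pnpla2* in GB-IL had a log2 ratio of 1.50 (adjusted p = 0.124, standard error 0.536, edgeR quasi-likelihood, Benjamini-Hochberg), and without GB-IL liver 4 it was 1.82 and called (adjusted p = 0.0156). Leaving out liver 1 brought the *Pnpla2* ratio to 0.67 (adjusted p = 0.513) and without both livers 1.02 (adjusted p = 0.141, edgeR quasi-likelihood, Benjamini-Hochberg), neither called.

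Interconversion of retinol and retinal, the step of *Adh1* and *Adh4*, had 17 of 20 genes tested, with 5 higher and 12 lower by sign, median log2 -0.62 and 7 of 17 at an unadjusted p below 0.05 for GB-IL against DIO, where all genes had a median of 0.04 and a share of 23.1%. *Rdh7*, a microsomal retinol dehydrogenase, was second to *Adh1* per kilobase, at 677 CPM against 1090.5 in DIO livers. Its log2 ratio was -0.62 for GB-IL against DIO (adjusted p = 0.194, edgeR quasi-likelihood, Benjamini-Hochberg) and -0.84 without GB-IL liver 4, when it was called (adjusted p = 0.0394). Without liver 1 the *Rdh7* ratio was -0.44 (adjusted p = 0.438) and without both livers -0.62 (adjusted p = 0.137, edgeR quasi-likelihood, Benjamini-Hochberg), neither called. For RYGB against DIO the role had 7 higher and 10 lower by sign, median log2 -0.11. Oxidation of retinal to retinoic acid, the step of *Aldh1a1*, had 6 of 7 genes tested, with 1 higher and 5 lower by sign, median log2 -0.85 for GB-IL against DIO and 2 higher and 4 lower by sign, median log2 -0.38 for RYGB against DIO. The paralog *Aldh1a7* was among the lower genes in both, and whether its reads were kept apart from those of *Aldh1a1* is not known. The aldehyde oxidase genes *Aox1* and *Aox3*, named after their values were seen, had log2 ratios of -1.09 and -1.39 for GB-IL against DIO, neither called, and -2.37 and -2.92 without GB-IL liver 4, both called (adjusted p = 0.000784 and 0.0291, edgeR quasi-likelihood, Benjamini-Hochberg). Without liver 1 they were -0.86 and -1.01, neither called, and without both livers -2.47 and -2.44, of which *Aox1* was called (adjusted p = 0.00346 and 0.0789, edgeR quasi-likelihood, Benjamini-Hochberg).

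Besides *Cyp26a1*, breakdown and saturation were represented by *Retsat* and *Cyp26b1*, the most abundant per kilobase. *Retsat* encodes the enzyme that saturates a double bond of retinol. It had 458, 471, 533, 546 and 618 CPM in DIO livers 1 to 5, 107, 86.3, 103 and 447 CPM in GB-IL livers 1 to 4 and 651, 313, 259, 270.5 and 276 CPM in RYGB livers 1 to 5. GB-IL livers 1 to 3 were far below and GB-IL liver 4 just below the lowest DIO liver, and 4 of 5 RYGB livers were below it too, with RYGB liver 1 above all DIO livers. Against DIO, *Retsat* in GB-IL had a log2 ratio of -1.50 (adjusted p = 0.0840, standard error 0.460, edgeR quasi-likelihood, Benjamini-Hochberg). Without GB-IL liver 4 it was -2.42, and *Retsat* was called lower (adjusted p = 0.000534, edgeR quasi-likelihood, Benjamini-Hochberg). It was not called without liver 1, at -1.31 (adjusted p = 0.236), and was called without both livers, at -2.49 (adjusted p = 0.00217, edgeR quasi-likelihood, Benjamini-Hochberg). For RYGB against DIO *Retsat* was at -0.57 (adjusted p = 0.729, edgeR quasi-likelihood, Benjamini-Hochberg), and with voom at -0.86 and called lower (adjusted p = 0.0316, limma). *Cyp26b1*, a second retinoic acid hydroxylase, had a log2 ratio of -0.01 (adjusted p = 0.996, edgeR quasi-likelihood, Benjamini-Hochberg) that rested on GB-IL liver 1, with 31.2, 4.01, 2.93 and 5.53 CPM in GB-IL livers 1 to 4. Without liver 1 the *Cyp26b1* ratio was -1.40 (adjusted p = 0.412, edgeR quasi-likelihood, Benjamini-Hochberg). The 3 carotenoid genes had 1 higher and 2 lower by sign, median log2 -0.03 for GB-IL against DIO, with *Scarb1*, the uptake receptor, at -0.03 (adjusted p = 0.959, edgeR quasi-likelihood, Benjamini-Hochberg) and *Bco2*, a cleavage enzyme, at -0.87 (adjusted p = 0.267). The *Scarb1* ratio rested on GB-IL liver 3, with 123, 122, 329.6 and 144 CPM in GB-IL livers 1 to 4 against 147, 187, 194, 203 and 185 CPM in DIO livers 1 to 5. Without liver 3 it was -0.50 (adjusted p = 0.114, edgeR quasi-likelihood, Benjamini-Hochberg). In RYGB all 5 livers had more *Scarb1* than any DIO liver, a log2 ratio of 0.43 that was not called (adjusted p = 0.650, edgeR quasi-likelihood, Benjamini-Hochberg).

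The 6 nuclear receptors, *Rara* and *Rarb* included, had 3 higher and 3 lower by sign, median log2 0.17 for GB-IL against DIO. *Rxra*, the partner receptor that dominates in liver, had 90.2 CPM per kilobase in DIO livers, against 9.02 for *Rxrb* and 5.60 for *Rara*. Its log2 ratio for GB-IL against DIO was -0.13 (adjusted p = 0.679, edgeR quasi-likelihood, Benjamini-Hochberg), and that of *Rxrb* was 0.48 (adjusted p = 0.322). *Rxrg*, the remaining RXR gene and named after its values were seen, had 4.97, 5.12, 8.55, 6.22 and 6.39 CPM in DIO livers 1 to 5, 1.21, 0.791, 3.82 and 4.80 CPM in GB-IL livers 1 to 4 and 5.09, 4.78, 3.27, 3.81 and 4.08 CPM in RYGB livers 1 to 5. All 4 GB-IL livers were below every DIO liver, livers 1 and 2 furthest. Against DIO, *Rxrg* in GB-IL had a log2 ratio of -1.22 (adjusted p = 0.110, standard error 0.415, edgeR quasi-likelihood, Benjamini-Hochberg). Without liver 4 *Rxrg* was called lower, at -1.67 (adjusted p = 0.0125), and it was not called without liver 1, at -0.99 (adjusted p = 0.270), or without both, at -1.44 (adjusted p = 0.0508, edgeR quasi-likelihood, Benjamini-Hochberg). For RYGB against DIO *Rxrg* was at -0.57 (adjusted p = 0.701, edgeR quasi-likelihood, Benjamini-Hochberg), and with voom at -0.67 and called lower (adjusted p = 0.0400, limma). The 5 co-regulators, which repress or activate genes with the receptors, had 2 higher and 3 lower by sign, median log2 -0.14 for GB-IL against DIO. In RYGB against DIO they had 5 higher and 0 lower by sign, median log2 0.15, and for GB-IL against RYGB 0 higher and 5 lower by sign, median log2 -0.28. The repressor *Ncor1* had a log2 ratio of -0.48 for GB-IL against DIO (adjusted p = 0.236, edgeR quasi-likelihood, Benjamini-Hochberg) and was called lower without GB-IL liver 4, at -0.72 (adjusted p = 0.0351), but not without liver 1, at -0.42 (adjusted p = 0.469), or without both livers, where the ratio was -0.73 (adjusted p = 0.0869). *Tgm2* and *Rarres1*, 2 further known retinoic acid targets, had log2 ratios of 1.04 (adjusted p = 0.234) and -0.02 (adjusted p = 0.978) for GB-IL against DIO, neither called (edgeR quasi-likelihood, Benjamini-Hochberg). That of *Tgm2* was 0.51 without GB-IL liver 1 (adjusted p = 0.638, edgeR quasi-likelihood, Benjamini-Hochberg). For RYGB against DIO that of *Tgm2* was 1.05 (adjusted p = 0.572, edgeR quasi-likelihood, Benjamini-Hochberg), with 126, 104, 145, 97.6 and 85.0 CPM in the DIO livers and 144, 140.5, 109.7, 121 and 639.9 CPM in the RYGB livers, of which liver 5 was far the highest. The 7 sinusoidal endothelium markers, all found, with *Stab2* the most abundant and none at 0 in every liver, were also highest in RYGB liver 5. They summed to 628 CPM of the total count there, against 202 to 299 in the other livers. The part of endothelium in the *Tgm2* values was not tested.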

How the data were processed

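RNA of 14 livers was sequenced, and the authors aligned reads with TopHat2 to mm10 (the notes also name hg19) and used HTSeq for counting. The deposited table holds each gene's raw counts, 1 column per liver. Which versions, annotation and strand setting were used is not stated in those notes. Total counts were 18440676 to 21473005 in DIO (median 19493070), 19231679 to 26131278 in GB-IL (median 22714099.5) and 18223135 to 28656631 in RYGB (median 23086207).

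Of 25212 rows, 577 had no counts and 14252 passed the edgeR expression filter with livers grouped by surgery. After TMM scaling the counts were fitted with edgeR 4.0.16 quasi-likelihood on all 14 livers with 3 group means, and p-values were adjusted by Benjamini-Hochberg over all tested genes. Alternatives were RLE scaling, no filter, 2-group fits, a replicate block, DESeq2 1.42.0, limma 3.58.1 voom with sample quality weights, and leaving out each liver. Exon lengths came from GENCODE M21, matched by identifier for 24701 rows, and promoters from RefSeq. R 4.3.3, Python 3.11.15, numpy 2.4.6, pandas 2.3.3, scipy 1.17.1 and matplotlib 3.10.9 were used.

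Member genes and lists were chosen with earlier results of these data known. Some genes of the wider list are not reported here, and its counts leave them out.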

Additional observations from a re-analysis of the deposited data

Results flagged for a closer look

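The spread of the 8 genes and *Fabp5* in each group was searched for a liver far from the others by the Dixon ratio, in 27 tests, a rule that by chance alone picks a liver in about 1 of 20 groups. It picked 3 livers. *Adh1* in DIO liver 3 was 3231 CPM, against 2081 to 2388 in the other DIO livers. *Cyp26a1* in RYGB liver 2 was 12.4 CPM, against 1.02 to 3.66 in the other RYGB livers. *Rara* in GB-IL liver 3 was 23.4 CPM, against 17.8 to 18.4 in the other GB-IL livers.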

How the results depend on the processing

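For the log2 ratios of the 7 tested genes, sign and call were unchanged in 406 comparisons with an alternative, the sign reversed in 25 and a call was gained in 3. How far the size of a ratio moved is not part of these counts. Counts of calls kept within 1.5 times in 139, were higher in 28 and lower in 19. The cause was not tested where no cause is named.

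For GB-IL against DIO, 465 of all genes were called, and 1292 with DESeq2, 0 in a fit of the 2 groups alone, 1 with a replicate block, 1779 without GB-IL livers 1 and 4, and 0 to 3572 with single livers left out. Of the 62 retinoid genes 1 was called, and 6 with DESeq2, 6 with voom, 2 with no filter, 0 in the 2-group fit, 0 with the replicate block, 9 without livers 1 and 4, and 0 to 18 with single livers left out. Of the members 0 were called, and 1 without livers 1 and 4 and 0 to 1 with single livers left out. Leaving out both livers, and leaving out 1 or both for *Aldh1a2*, was chosen after the data were seen.

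For RYGB against DIO, 0 of all genes were called, and 97 with DESeq2, 1690 with voom, 33 in the 2-group fit and 0 to 5 with single livers left out. Retinoid genes called were 0, and 1 with DESeq2, 12 with voom and 1 in the 2-group fit. Of the members voom called 1.

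For GB-IL against RYGB, 0 of all genes were called, and 845 with DESeq2, 115 with voom, 51 with no filter, 1459 without livers 1 and 4 and 0 to 3120 with single livers left out. Retinoid genes called were 0, and 1 with DESeq2, 6 without livers 1 and 4 and 0 to 12 with single livers left out.

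Some log2 ratios changed sign. *Lrat* in GB-IL against DIO was -0.0906 with voom, -0.0415 with the replicate block, -0.36 without livers 1 and 4 and -0.10 to 0.36 with single livers left out. *Cyp26a1* was -0.40 without livers 1 and 4. In RYGB against DIO, *Adh4* was -0.13 with the replicate block and -0.0489 to 0.34 with single livers left out, *Cyp26a1* -0.81 to 0.87 and *Rara* -0.0834 to 0.10. In GB-IL against RYGB, *Adh1* was 0.0286 with voom, *Aldh1a1* -1.05 to 0.14 with single livers left out, *Cyp26a1* -0.67 without livers 1 and 4 and -0.0374 to 1.48, and *Rarb* -0.28 with voom, -0.0660 without livers 1 and 4 and -0.10 to 0.44.

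The replicate block used liver numbers, which the labels do not call pairs. Same-numbered livers correlated between -0.381 and 0.381, above 0.1 in 2 of 13 pairs. These correlations showed no pairing by number, but with so few livers in a group they cannot exclude it. Depth limits *Aldh1a2* most, with 0 to 31 reads a liver.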

Other observations

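The retinoid genes *Rdh12*, *Rbp2*, *Crabp2* and *Stra6*, too low for the filter, had most of their reads in GB-IL livers 1 and 3. GB-IL liver 1 is also the liver highest for exocrine pancreas (1097 CPM), skeletal muscle (1047) and squamous epithelium (44.3) markers, whose part in these reads was not tested. The other retinoid genes too low for the filter, *Aldh1a2*, *Rbp7*, *Sdr16c5*, *Cyp26c1*, *Rdh19* and *Crabp1*, did not have most of their reads in those livers. *Rdh12*, a retinal reductase, had 39, 5, 33 and 3 reads in GB-IL livers 1 to 4, 3, 3, 1, 2 and 1 in DIO livers 1 to 5 and 4, 5, 5, 1 and 10 in RYGB livers 1 to 5. *Rbp2*, the retinol binding protein of the intestine, had 31, 2, 13 and 0 reads in GB-IL livers 1 to 4, 0, 0, 6, 0 and 0 in DIO livers 1 to 5 and 0, 0, 0, 0 and 0 in RYGB livers 1 to 5. *Crabp2*, a retinoic acid binding protein, had 16, 0, 1 and 0 reads in GB-IL livers 1 to 4, 0, 0, 0, 0 and 0 in DIO livers 1 to 5 and 1, 0, 0, 0 and 1 in RYGB livers 1 to 5. *Stra6*, the receptor for retinol binding protein in other organs, had 6, 0, 0 and 0 reads in GB-IL livers 1 to 4, 0, 0, 0, 0 and 0 in DIO livers 1 to 5 and 0, 0, 0, 0 and 0 in RYGB livers 1 to 5. *Rdh12*, *Rbp2*, *Crabp2* and *Stra6* are named after their values were seen. They were tested only in the fit with no filter on low counts, where for GB-IL against DIO *Rdh12* was called (adjusted p = 0.0412, edgeR quasi-likelihood, Benjamini-Hochberg) and *Rbp2*, *Crabp2* and *Stra6* were not (adjusted p = 0.238, 0.141 and 0.316).

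Markers of other liver cells also differed between the GB-IL livers. The 9 macrophage markers, with *Cd5l* the most abundant, summed to 689.9, 1147, 2312 and 944 CPM of the total count in GB-IL livers 1 to 4, against 420.1 to 753 in DIO livers and 1134, 488, 572, 467 and 811 in RYGB livers 1 to 5. The 5 cholangiocyte markers, with *Sox9* the most abundant, summed to 32.9, 40.7, 12.7 and 8.65 CPM in GB-IL livers, against 4.90 to 10.1 in DIO livers and 6.86 to 13.3 in RYGB livers. The 5 neutrophil markers, with *S100a9* the most abundant, summed to 85.6, 37.8, 234 and 2.30 CPM in GB-IL livers and 7.35, 3.41, 4.64, 5.11 and 73.7 CPM in RYGB livers, against 2.38 to 4.82 in DIO livers. All markers of the 3 lists were found and none was at 0 in every liver, and their part in the retinoid results was not tested.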
